A study of Mus musculus with 7 samples.

Results

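At 2370 mouse liver promoters, chromatin was accessible to Benzonase and to Cyanase, but no DNase I hotspot overlapped the same region. These promoters were chosen by merging the hotspots of the 3 enzymes on chromosomes 1 to 19 wherever they shared at least 1 bp. A merged region was kept if it held a Benzonase and a Cyanase hotspot, held no DNase I hotspot, and reached within 1 kb of a transcription start site (TSS) of a protein-coding transcript. They made up 2370 of 15995 promoter regions (14.8%, 95% Wilson interval 14.3 to 15.4) and of 90879 merged regions in all. Because presence and absence of hotspots chose them, the hotspot patterns and widths given below describe the selection and were not tested.

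All libraries came from livers of 8 week old male C57BL/6 mice. For Benzonase and Cyanase, intact frozen liver was pulverised and digested in TACh, a procedure for tissue accessible chromatin, at 0.25, 1 and 4 U of enzyme. For DNase I, nuclei were first purified from fresh liver, so the enzyme and the tissue preparation cannot be told apart. The deposited lists hold 59040 Benzonase, 55904 Cyanase and 69897 DNase I hotspots on chromosomes 1 to 19 after pooling of libraries per enzyme. They give positions only, without tag counts, so replicate spread and depth were not analysed here, and each interval below covers counting error or the spread over regions alone. As a check of the tissue label, all 8 hepatocyte genes examined, including Alb and Apoa1, had a promoter region with all 3 enzymes, and none had a promoter missed by DNase I. The same 0 was found for 5 markers of other tissues. Of 14 markers of Kupffer, endothelial, stellate and bile duct cells, 4 had one, namely Clec4g, Lrat, Epcam and Sox9, beside 10.6% of all genes, a share that leaves little to be read from lists this short. Whole liver holds all these cells, and a promoter open in few cells cannot be told apart from one weakly open in many.

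Endonucleases cut DNA where nucleosomes are displaced, and clusters of such cuts mark promoters and enhancers. Many mammalian promoters lie in CpG islands, stretches rich in G, C and the CpG dinucleotide that usually remain unmethylated. Promoters of housekeeping genes tend to be such islands with binding sites for ETS factors, NRF1 and YY1, whereas islands of developmental regulators are commonly bound by Polycomb complexes in tissues where the gene is silent.

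The base composition of these promoters can be read in the stretches directly upstream of the TSS, shown from mm9 with each CpG in capitals. The examples contrast CpG-dense promoters of a ubiquitin ligase subunit (Fbxl14), a kainate receptor subunit (Grik4), a bone morphogenetic protein (Bmp2) and a Polycomb subunit (Cbx2) with a promoter of intermediate composition (Nr4a2, a nuclear receptor), one with TATA and CCAAT letters (Twist1, a mesodermal transcription factor), and 2 GC-poor promoters of liver enzymes, a fatty acid hydroxylase (Cyp4a14) and a peroxisomal hydroxyacid oxidase (Hao2).
Fbxl14, chr6:119429536-119429685, plus strand: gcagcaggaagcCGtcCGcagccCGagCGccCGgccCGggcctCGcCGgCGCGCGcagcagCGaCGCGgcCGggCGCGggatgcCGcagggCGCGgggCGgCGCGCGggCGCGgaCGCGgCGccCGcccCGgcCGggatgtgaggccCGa
Grik4, chr9:42752577-42752726, minus strand: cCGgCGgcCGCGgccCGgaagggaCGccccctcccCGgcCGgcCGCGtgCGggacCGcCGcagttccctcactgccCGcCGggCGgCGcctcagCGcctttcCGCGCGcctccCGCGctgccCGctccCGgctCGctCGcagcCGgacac
Bmp2, chr2:133377745-133377894, plus strand: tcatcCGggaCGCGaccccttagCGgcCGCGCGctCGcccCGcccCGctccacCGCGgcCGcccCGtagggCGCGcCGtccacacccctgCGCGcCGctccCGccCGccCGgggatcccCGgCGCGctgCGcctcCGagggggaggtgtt
Cbx2, chr11:118884126-118884275, plus strand: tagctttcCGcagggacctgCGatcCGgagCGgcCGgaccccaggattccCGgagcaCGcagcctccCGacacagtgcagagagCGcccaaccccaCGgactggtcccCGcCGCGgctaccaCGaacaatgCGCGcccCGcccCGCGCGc
Nr4a2, chr2:56967450-56967599, minus strand: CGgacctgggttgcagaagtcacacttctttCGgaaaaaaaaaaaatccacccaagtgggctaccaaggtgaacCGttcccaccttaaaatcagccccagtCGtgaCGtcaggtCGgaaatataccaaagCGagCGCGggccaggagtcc
Twist1, chr12:34642386-34642535, plus strand: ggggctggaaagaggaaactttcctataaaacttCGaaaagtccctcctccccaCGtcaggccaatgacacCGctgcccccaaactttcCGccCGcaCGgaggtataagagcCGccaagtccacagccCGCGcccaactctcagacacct
Cyp4a14, chr4:115168748-115168897, minus strand: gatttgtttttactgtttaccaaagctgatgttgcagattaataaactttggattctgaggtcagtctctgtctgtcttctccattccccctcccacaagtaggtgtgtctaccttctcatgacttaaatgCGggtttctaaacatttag
Hao2, chr3:98697163-98697263, minus strand: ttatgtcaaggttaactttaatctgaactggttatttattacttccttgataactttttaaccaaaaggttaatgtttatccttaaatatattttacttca

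Of 150 upstream bases, 86.7% were G or C in Fbxl14, with 33 CpGs. Grik4 and Bmp2 each had 28 CpGs, and Cbx2 had 20. The Nr4a2 stretch had 9 CpGs at 52.7% GC and holds TGACGTCA, the palindrome bound by CREB and ATF factors. Twist1 also had 9 CpGs, at 58.0% GC. The Cyp4a14 stretch had 1 CpG at 40% GC and contains TGTTTAC, letters of the FOXA motif, while the 101 bases of Hao2 had no CpG at 23.8% GC.

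The promoters missed by DNase I were short accessible regions close to the TSS. Their median span was 799 bp (quartiles 625 and 1067 bp) against 1344 bp for the 10888 promoters with all 3 enzymes, and a median of 627.5 bp was covered by both Benzonase and Cyanase. In 2249 of 2370 (94.9%), a single hotspot of each enzyme formed the region. Counting also hotspots outside the region, 84.3% had a Benzonase and 80.1% a Cyanase hotspot at the nearest TSS. Benzonase coverage counted in this way was 46.5% at 400 bp upstream and 57.3% at 400 bp downstream. Of all their bases, 13.1% lay in coding exons, 19.7% in other exonic sequence, 37.4% in introns and 29.8% outside transcripts.

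**Figure D1:**
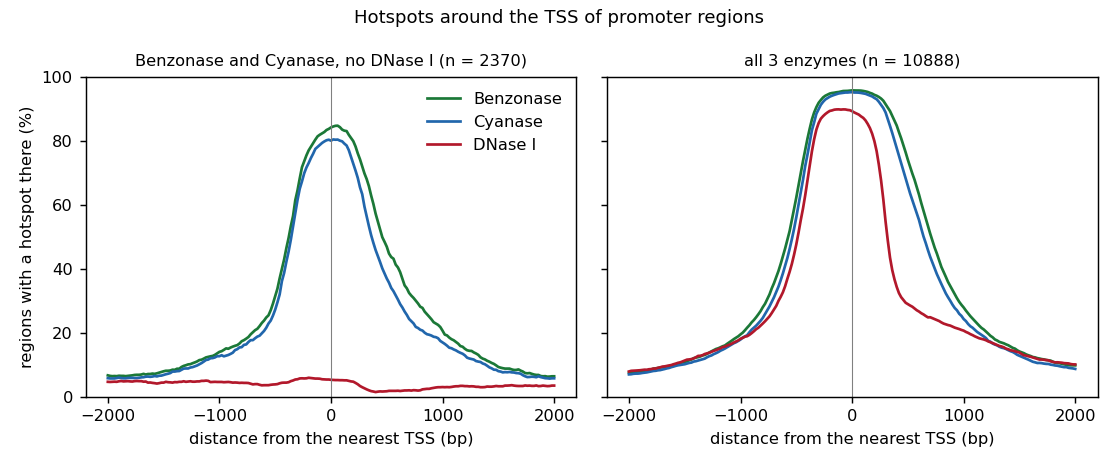
Share of regions (vertical axis, percent) with a hotspot of each enzyme at each distance from the nearest TSS (horizontal axis, bp, positive in the direction of transcription), for the 2370 promoters chosen for lacking DNase I (left) and the 10888 with all 3 enzymes (right). In the left panel Benzonase and Cyanase peak near the TSS, where DNase I covers 5.32%, from hotspots that do not touch the region; in the right panel DNase I coverage falls to 34.4% at 400 bp downstream, where Benzonase covers 84.9%.

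A TSS lay inside 1798 of the 2370 regions (75.9%, 74.1 to 77.5), while 199 lay wholly upstream and 373 wholly downstream of the nearest TSS. Promoters with all 3 enzymes covered a TSS more often (91.0%, difference -15.1 percentage points, 95% Newcombe interval -17.0 to -13.4). Region width moved with this difference. When promoters with Benzonase and Cyanase were divided into 4 classes of equal size by the bases under both enzymes, the narrowest class held at most 755 bp. In it, 67.5% of the promoters missed by DNase I and 65.3% of those with all 3 enzymes covered a TSS, a difference of 2.20 points (-1.02 to 5.41) that did not hold beyond its interval. In the other 3 classes the difference ranged from -3.77 to -0.855 points. Its interval lay below 0 in the second narrowest class (-6.98 to -1.11) and included 0 in the wider ones. Fewer of the promoters missed by DNase I overlapped TSS windows on both strands (4.39% against 10.9%, difference -6.56, -7.52 to -5.49). In the narrowest class this difference was 0.349 points (-0.978 to 1.71). In the other 3 classes it ranged from -4.33 to -9.93 points, with each interval below 0.

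Most of the genes concerned had no DNase I hotspot at any annotated promoter. The 2370 regions lay at the TSSs of 2274 of 21416 protein-coding genes (10.6%). Of these, 1703 (74.9%) had no DNase I hotspot in any of their TSS windows and 571 (25.1%) had one. The nearest DNase I hotspot lay a median of 8151.5 bp from the region, more than 10 kb away in 1082 cases and more than 100 kb away in 91. In 328 regions (13.8%, 12.5 to 15.3), DNase I had a hotspot elsewhere in the same TSS window. This share depended on the joining and the window, being 8.68% with hotspots within 150 bp joined and 0.609% with windows of 250 bp each side. At the settings used here, these were 8.45% of the regions that covered a TSS, and 31.2% and 30.6% of those wholly upstream and downstream. By the selection, a region over the TSS keeps DNase I out of the middle of the window. That contrast therefore describes the selection and was not tested.

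The selection had a sharp edge, since a single base of overlap with DNase I removed a region. Just inside, Zmym5, Ergic1 and a second Fkbp5 region ended 1, 2 and 2 bp from a DNase I hotspot, and 62 regions were within 150 bp of one. Just outside, DNase I hotspots shared 10 bp with the region at Man1a2, 28 bp at Slc50a1 and 39 bp at Zbtb34. Farthest from DNase I were Gm2897, Gm8108 and 2610042L04Rik, at 2965, 1801 and 1577 kb. All 3 lie near the start of chromosome 14 among genes with provisional names. Of the 20-base words in each region, 13.5 to 28.2% recurred in another of the 3, so short tags could be shared between copies and these values are uncertain.

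Ranked by bases under both enzymes, the first 10 promoters were those of Dnmt3a (a de novo DNA methyltransferase), Fbxl14, Nr4a2, Plxna1, 1700017B05Rik, Ctbp2 and Rcor2 (corepressors), Zbtb46 and Cbfa2t3 (transcriptional regulators), and Fkbp5 (a glucocorticoid-induced chaperone). Both enzymes covered between 2145 and 3102 bp in these 10, their GC content ranged from 59.0 to 70.3%, each overlapped a CpG island, of 430 to 3136 bp, and no TSS window held a DNase I hotspot. The Dnmt3a region, chr12:3805679-3809164, spanned 3486 bp from 1481 bp upstream to 2004 bp downstream of its TSS and was the widest.

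**Figure D2:**
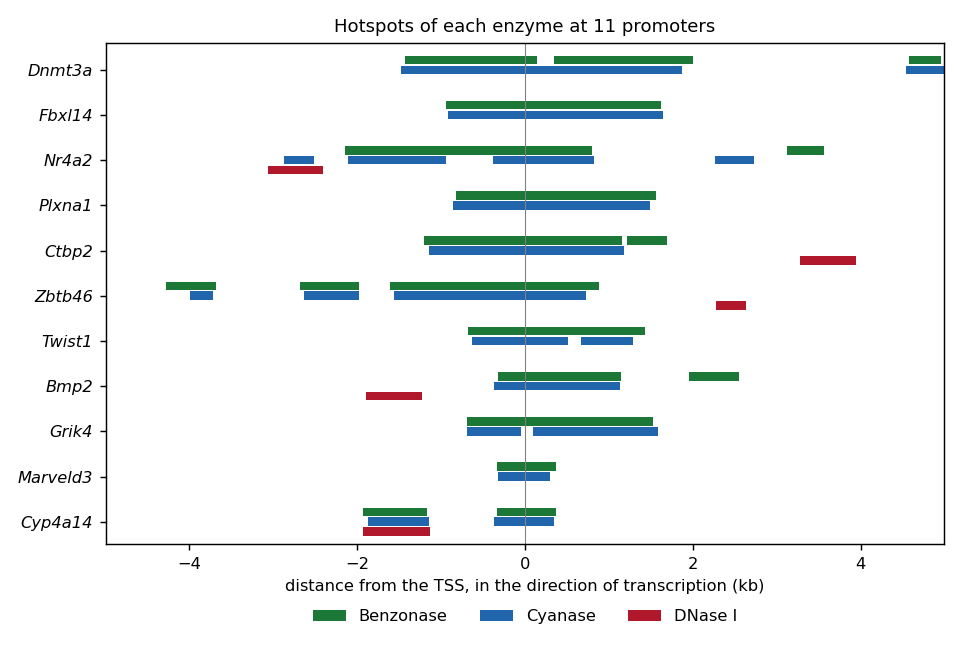
Hotspots of Benzonase, Cyanase and DNase I (bars) within 5 kb of the TSS of 11 promoters, one row each, with distance in kb in the direction of transcription on the horizontal axis. Benzonase and Cyanase bars span the TSS in each row except Grik4, where a Cyanase gap lies at the TSS, and no DNase I bar touches the bars at the TSS; the DNase I bars that appear, as at Ctbp2, Zbtb46, Bmp2 and Cyp4a14, lie beside the promoter.

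Some of these genes also had regions with all 3 enzymes. Dnmt3a, whose isoforms start at separate promoters, lacked DNase I at the GC-rich upstream promoter (70.3% GC) and at chr12:3891177-3891954 (64.7%). It had 4 internal regions with all 3 enzymes, chr12:3859298-3860664 at 50.04% GC, chr12:3866373-3867541 at 45.6%, chr12:3892036-3892911 at 55.5% and chr12:3894380-3895093 at 51.5%. The region at chr12:3891177-3891954 and the one at chr12:3892036-3892911 lay at the same TSSs. Zeb2, a repressor of epithelial genes, lacked DNase I at chr2:44963959-44966392 (61.1% GC) and chr2:44968414-44969056 (51.5%) and had all 3 enzymes at chr2:44972371-44973300 (56.5%). In the TSS window of the second region, DNase I alone had hotspots at chr2:44967433-44968062 (38.7%) and chr2:44969290-44969920 (38.4%). The order of GC content was the other way at Nr4a2, where the region without DNase I had 59.7% GC and the one with all 3 enzymes 65.5%. Fkbp5 had regions without DNase I at 59.0% and 46.6% GC and regions with all 3 enzymes at 64.6% and 46.2%, and the pair at 46.6% and 46.2% shared a TSS. In all, 506 of the 2274 genes (22.3%) had a region of all 3 enzymes at another place. Of all genes, 50.5% had such a region at any place. These shares are not alike, since each of the 2274 genes was chosen for a region without DNase I. Marveld3, an epithelial tight junction gene named by the study, was covered by both enzymes over 615 bp at chr8:112485734-112486441, with 61.4% GC and 7644 bp between the region and the nearest DNase I hotspot.

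The promoters missed by DNase I were richer in G and C than those all enzymes reached. Mean GC content was 62.4% (SD 6.24, n = 2370) against 56.3% (SD 6.11, n = 10888), a difference of 6.04 percentage points (95% interval 5.76 to 6.31 from the spread over regions). Over the central 300 bp, the means were 66.7% and 63.1% (difference 3.66, 3.28 to 4.04), and in the 5 kb on either side 47.2% and 45.1% (difference 2.10, 1.90 to 2.30). The 977 promoters found by DNase I alone averaged 43.8%, which is 18.6 points lower (18.18 to 18.997) and near the 44.8% of their flanks. Promoters found by Benzonase alone (61.2%, n = 1004) or Cyanase alone (58.6%, n = 451) also lacked DNase I. High GC content was therefore not particular to the 2370. In 2336 of the 2370 regions (98.6%), GC content was above that of the flanks. The same was true of 94.8% of promoters with all 3 enzymes, 97.9% with Benzonase alone and 93.8% with Cyanase alone. With DNase I alone it was 41.2%.

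Among the 13258 promoters with Benzonase and Cyanase, the share without DNase I was 17.9%. It differed strongly between bins of GC content of the whole region. It was 2.79% below 45% GC (15 of 537), 12.3% between 55 and 60% (521 of 4236), 23.2% between 60 and 65%, 47.6% between 65 and 70% (589 of 1238) and 81.9% between 70 and 75% (235 of 287). Above 75% GC, 29 of 29 lacked DNase I (lower bound 88.3%). Binned instead on the central 300 bp, the share changed much less between 55 and 75% GC. In bins from 55 to 60% up to 70 to 75%, 344, 446, 485 and 497 promoters lacked DNase I. In the same bins, 1517, 1885, 2106 and 1730 had all 3 enzymes. Width moved with the same outcome, since the share was 47.0% in the narrowest of the 4 width classes and 2.90% in the widest. Within each width class the promoters missed by DNase I still had higher GC content, by 10.8, 8.31, 6.81 and 5.84 points from the narrowest to the widest. Outside promoters, 20.8% of regions with Benzonase and Cyanase lacked DNase I, so the promoter share was lower (difference -2.91, -3.69 to -2.12).

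**Figure D3:**
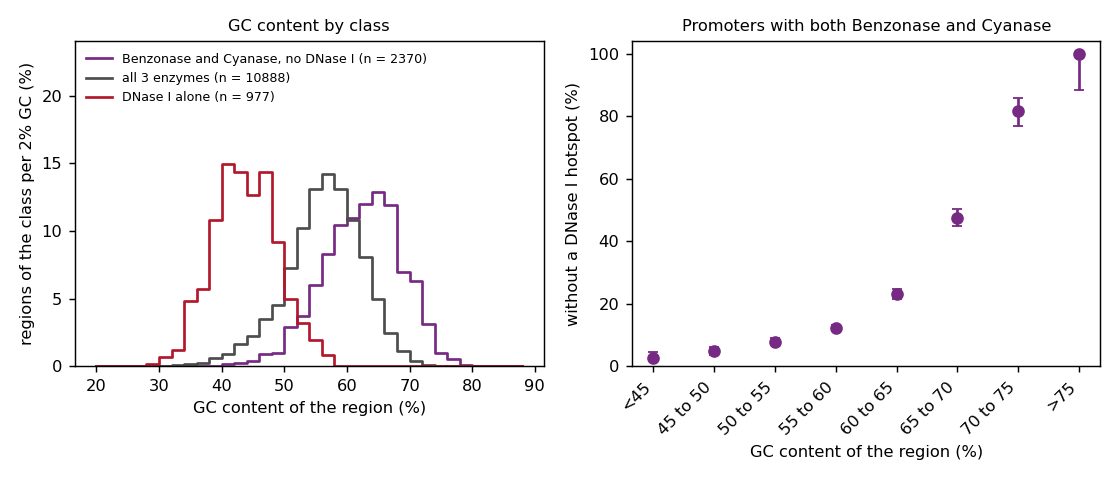
Left, distribution of region GC content (horizontal axis, percent, in steps of 2) as a share of each class (vertical axis, percent) for promoters without DNase I, with all 3 enzymes and with DNase I alone. Right, share of promoters with Benzonase and Cyanase that lack a DNase I hotspot (vertical axis, percent) per bin of whole-region GC content. Bars are 95% Wilson intervals. The points climb from 2.79% below 45% GC to 81.9% between 70 and 75%.

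A CpG island overlapped 1728 of the 2370 promoters (72.9%, 71.1 to 74.7), somewhat fewer than the 76.2% of promoters with all 3 enzymes (difference -3.30, -5.29 to -1.37) and many more than the 1.13% of those with DNase I alone. At equal GC content the promoters missed by DNase I were islands less often, 13.0% against 65.2% between 50 and 55% GC, 45.1% against 90.1% between 55 and 60%, and 87.1% against 98.9% between 60 and 65%. The ratio of observed to expected CpGs was lower in each of these bins, with 0.455 (SD 0.207) against 0.668 (SD 0.171) between 55 and 60% GC, a difference of -0.213 (-0.231 to -0.194). In that bin the median bases under both enzymes were 599 and 1201 bp. At equal width the order was reversed, as 63.1% in the narrowest class overlapped an island against 29.5% (difference 33.5, 30.3 to 36.7), and 97.9% against 91.6% in the widest. In the narrower regions GC content, width and island overlap move together, and their parts were not tested separately.

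Promoters missed by DNase I are described next with and without an island. Islands are defined partly by GC content, so the contrast in composition follows from the split. DNase I hotspots chose the regions, so the DNase I values here were not tested. Regions with an island were also wider, with a median span of 888.5 bp against 622 bp. The 1728 with an island had 64.9% GC (SD 4.73), covered a TSS in 83.7% of cases and had DNase I elsewhere in the window in 8.39%. The 642 without an island had 55.6% GC (SD 4.58), covered a TSS in 54.7%, had DNase I in the window in 28.5% and lay nearer to a DNase I hotspot, with a median of 3743.5 bp against 10410.5 bp. The longest islands were those of Hic1 (8548 bp), a transcriptional repressor, Cyp26b1 (5899 bp), which degrades retinoic acid, and Zfp516 (5405 bp). DNase I had a hotspot elsewhere in the TSS window of Hic1 (788 bp from the region) and of Cyp26b1 (504 bp). At Zfp516 the nearest one was 585 bp away. The longest island that promoters with all 3 enzymes overlapped was also 8548 bp, so long islands were not without DNase I. The lowest GC content was that of Pdlim5 (40.1%), Hao2 (40.3%) and Cyp4a14 (41.1%), none with an island.

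Letters of several motifs were rarer in the promoters missed by DNase I than in those with all 3 enzymes. Searched on both strands of the central 300 bp, CCGGAAG of ETS factors was present in 5.36% against 14.6% of promoters with all 3 enzymes (difference -9.24, -10.3 to -8.07), beside 11.3% of all promoter regions. For GCGCATGC of NRF1 the shares were 1.65% and 3.53% (all 2.78%), for AAGATGGCG of YY1 0.844% and 3.17% (all 2.32%), and for CCAAT of NF-Y 21.7% and 30.1% (all 28.9%). TATAAA, the TATA box, was at 2.15% and 4.77% (all 5.34%), and TGTTTAC of FOXA factors at 1.18% and 2.42% (all 2.60%). Higher shares were found for GGGCGG of SP and KLF factors, 63.2% against 58.0% (all 53.0%), and for AGGGGGCGC of CTCF, 3.25% against 1.69% (all 1.91%). Of 15 motifs searched, 11 differed with an interval that left out 0. No searched string contains another, and a match of letters does not show that a factor was bound.

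The differences were then taken between stretches of equal GC content, binned on the same 300 bp. Equal GC content leaves CpG content free to differ. Between 55 and 60% GC of the whole region, the ratio of observed to expected CpGs was 0.455 against 0.668. The searched letters of ETS, NRF1, YY1, CTCF and of SP and KLF factors contain a CpG. Those of NF-Y, the TATA box and FOXA contain none. The part of CpG content in the differences below was not tested. ETS letters were at 4.36, 6.05, 5.15 and 6.84% in the 4 bins from 55 to 75% GC, against 14.8, 22.1, 20.4 and 15.3% in promoters with all 3 enzymes, and the interval of the difference lay below 0 in each. The same held for NRF1, with at most 2.21% against at least 3.49%, and for YY1, with at most 1.24% against at least 3.098%. For NF-Y the interval lay below 0 between 55 and 70% GC and included 0 between 70 and 75%. For the TATA box and FOXA letters it included 0 in each of the 4 bins, so those deficits did not hold at equal GC content. The surplus of SP and KLF letters turned into a deficit between 55 and 60% GC (30.8% against 43.8%, difference -13.0, -18.3 to -7.38) and between 60 and 65%, and above 65% the intervals included 0. The CTCF surplus remained beyond its interval in 1 of the 4 bins, 65 to 70% GC (1.91, 0.573 to 3.89). With bins of the GC content of the whole region, the interval for ETS (4.58% against 6.47%, difference -1.89, -4.47 to 0.707) and NRF1 (2.04% against 1.23%, difference 0.805, -0.661 to 2.41) included 0 between 65 and 70% GC. The differences for both lay below 0 between 55 and 65%, and those for YY1 lay below 0 in each bin. SP and KLF letters were rarer in each of these bins, also between 65 and 70% (80.5% against 85.8%, difference -5.35, -9.55 to -1.18). The CTCF and FOXA intervals included 0 in each of them. For NF-Y the interval lay below 0 only between 65 and 70%, and for the TATA box only between 60 and 65%.

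**Figure D4:**
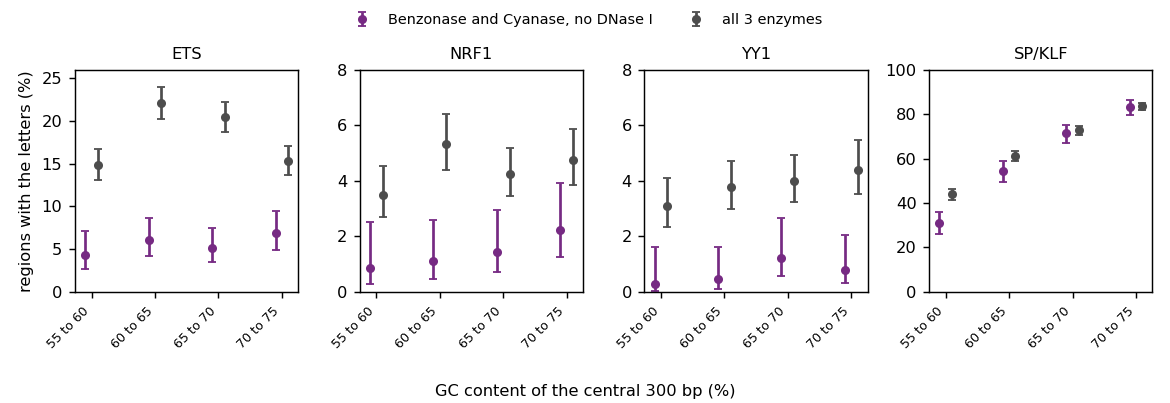
Share of promoters (vertical axis, percent) whose central 300 bp hold the letters of ETS, NRF1, YY1 or SP and KLF motifs, per bin of GC content of those 300 bp (horizontal axis, percent), with 95% Wilson intervals. ETS, NRF1 and YY1 letters are rarer in promoters without DNase I in each bin, while SP and KLF letters climb with GC content in both classes and differ below 65% GC.

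The genes behind these promoters were unevenly spread over gene families. A promoter missed by DNase I was found at 25 of 72 developmental receptor genes (34.7%, 24.8 to 46.2), 36 of 122 developmental ligand genes (29.5%), 39 of 135 genes of collagens, laminins and matrix proteases (28.9%), 39 of 137 genes of non-homeobox developmental transcription factors (28.5%), 62 of 232 ion channel genes (26.7%), 15 of 65 cadherin genes (23.1%), 37 of 167 G protein-coupled receptor genes (22.2%) and 37 of 169 homeobox genes (21.9%), against 10.6% of all genes. Families were taken by gene symbol and hold some related genes, such as Adrbk1, a receptor kinase, among the G protein-coupled receptors. Small GTPases and their regulators (16.7%), kinesins, dyneins and tubulins (16.3%) and solute carriers (13.6%) were nearer to that share, and of these only the interval of the small GTPases left it out. The ubiquitin system (10.9%), chromatin regulators (10.7%), Zfp zinc finger genes (9.75%), cell cycle genes (9.70%), drug metabolism enzymes (8.50%) and translation initiation and splicing factors (7.81%) lay close to it, with intervals that included it. Below it were plasma proteins of the liver (3 of 94), respiratory chain genes (2 of 89), ribosomal protein genes (1 of 80), proteasome subunits (0 of 45, allowing up to 7.87%) and olfactory and vomeronasal receptors (4 of 1403, of which 1370 had no hotspot of any enzyme).

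**Figure D5:**
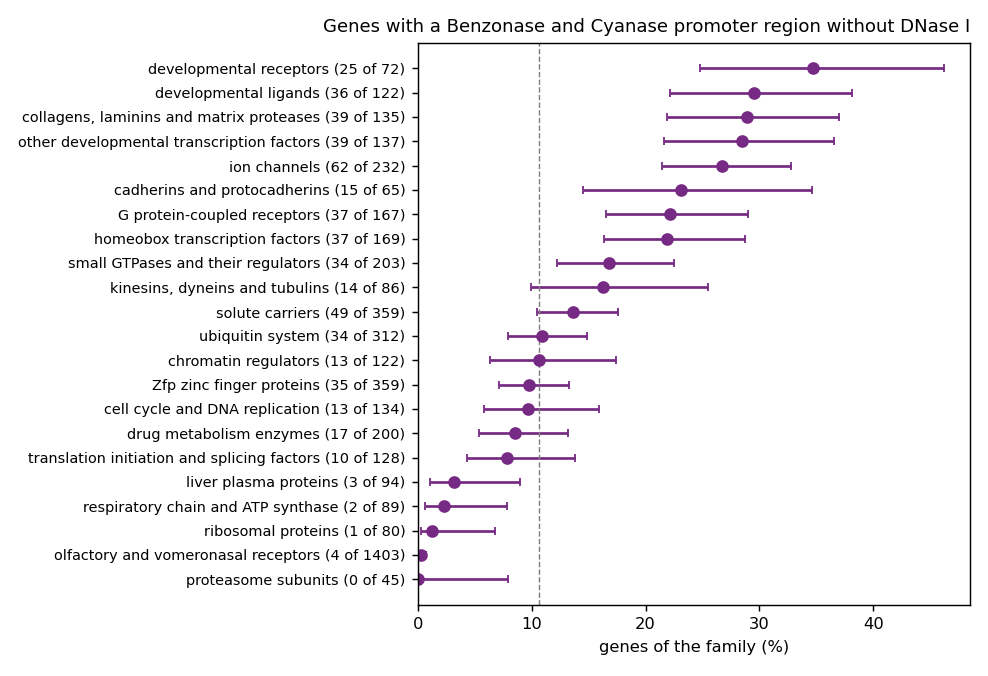
Share of genes in each of 22 families (horizontal axis, percent, with 95% Wilson intervals) that have a promoter region with Benzonase and Cyanase and without DNase I; counts stand beside the family names and the dashed line marks the 10.6% of all protein-coding genes. Developmental receptors are at 34.7% and proteasome subunits at 0 of 45.

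Families also differed in how many genes had an accessible promoter. Counting genes that had either a promoter missed by DNase I or one with all 3 enzymes, 18.1% of all such genes had the former. Such a promoter was found at 15 of 20 cadherin genes and at 37 of 74 G protein-coupled receptor genes. The share was 69.7% for ion channels (62 of 89) and 64.9% for homeobox genes (37 of 57). For collagens, laminins and matrix proteases it was 61.9% (39 of 63). Small GTPases and their regulators (18.6%, 34 of 183) were close to the share of all such genes. Below that share lay the ubiquitin system (13.8%), Zfp zinc finger genes (12.5%) and chromatin regulators (11.5%). Cell cycle genes (10.4%) and translation initiation and splicing factors (8.06%) were lower still. Intervals were not taken for these shares. GC content moved with family, with a median of 66.1% in ion channel promoters and 48.1% in those of drug metabolism enzymes.

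Among developmental transcription factors, the promoters with most bases under both enzymes were those of Foxk1 (1877 bp, with DNase I elsewhere in the window), Twist1 (1764 bp), Foxj2 (1441 bp) and Sox6 (1123 bp), and among homeobox genes Six4 (1382 bp), Pou6f1 (1119 bp), Nkx2-4 (997 bp) and Shox2 (921 bp). The Nkx2-4 region had 72.6% GC and lay 36086 bp from DNase I. Sox6 was an exception, since its region lay wholly upstream of the TSS, had 54.6% GC and overlapped no island. Ligand promoters included Ntn4, an axon guidance netrin (1572 bp), Bmp2 (1465 bp, 859 bp from DNase I), Wnt9a (1160 bp, 69.7% GC) and Tgfb1 (1134 bp). Receptor promoters included those of the plexins Plxna1, Plxnc1 and Plxna4, which bind semaphorins, and of Smo, the hedgehog signal transducer (1423 bp, 68.3% GC, 11582 bp from DNase I).

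Ion channel promoters were led by Grik4 (2073 bp, 33622 bp from DNase I), the calcium channel subunit Cacnb1 (1796 bp) and the channel-interacting protein Kcnip3 (1412 bp). Kcnip3 differed from the other two in its composition, with 55.9% GC, 0.259 of the expected CpGs and no island. Receptor genes included Gpr176, Gpr3 and Adora2a, which encodes an adenosine receptor, and each of their regions overlapped an island of 847 to 1204 bp. Matrix genes included Adamts3, a procollagen protease (145393 bp from DNase I), Adam23 and Adam11 of the ADAM family, and the collagen gene Col24a1, whose region lay 560 to 1707 bp downstream of the TSS at 54.6% GC.

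Families near or below the background share also had individual promoters without DNase I. Chromatin regulators with such a promoter included both de novo DNA methyltransferases, Dnmt3a and Dnmt3b (1283 bp, 67.5% GC), and 2 subunits of Polycomb repressive complex 1, Cbx2 (1088 bp, 69.9% GC) and Ring1 (1016 bp, 68.0% GC), although the family as a whole did not exceed the background. Cell cycle genes included Cdkn2a (1206 bp, 14905 bp from DNase I) and E2f6. In the translation and splicing family, Eif2c4, an Argonaute gene, had 1339 bp at 68.0% GC. Promoters of drug metabolism enzymes stood apart by their composition. Cyp2c40, Cyp4a10 and Cyp4a14 ranged from 41.1 to 47.6% GC without an island, and DNase I hotspots were 255 to 766 bp away. These Cyp genes belong to families of similar genes, and whether tag mapping affected the hotspots there was not tested. Among plasma protein genes, Fga and Apoa4 were named by regions of 580 and 507 bp downstream of the TSS, with DNase I elsewhere in the window of both.

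The promoters missed by DNase I were found on each of the 19 autosomes at similar shares, from 13.0% of promoter regions on chromosome 16 to 15.9% on chromosome 14.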

How the data were processed

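Per the study's methods, the authors mapped tags to mm9 by Eland or Bowtie, combined the libraries of each enzyme, and kept hotspots with an estimated FDR of 0% whose tag density exceeded its mode. The deposited lists hold the start and end of each hotspot, with no counts or scores, and were adjusted for input per the file headers. Over all chromosomes they hold 60910 Benzonase, 57675 Cyanase and 72286 DNase I hotspots. For each enzyme this is more than the study reports, so the lists are not the same set of calls. The DNase I header names 2 pooled libraries, while the labels list 1 DNase I sample. Labels give 3 Benzonase and 3 Cyanase samples. No column of single libraries was used, so no test over replicates was possible and no p-value is given.

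Hotspots were merged, classed and joined to GENCODE M1 TSSs in Python 3.11.15 (numpy 2.4.6, pandas 2.3.3). Sequence came from the NCBIM37 genome, the assembly of mm9. CpG islands were found by summing 17 per CpG and -1 per other base, keeping segments of at least 200 bp with GC content over 50% and observed to expected CpG over 0.6 (26087 islands). Shares have 95% Wilson intervals and their differences Newcombe intervals, which assume independent regions, and code was tested on simulated data. A region is named by the gene whose TSS is nearest its centre. Named were the 10 with most bases under both enzymes, the 3 nearest to and 3 farthest from DNase I, up to 4 per family by bases under both enzymes, the 3 longest islands, the 3 lowest GC contents and Marveld3. Dnmt3a, Nr4a2, Fkbp5 and Zeb2 were named for their other promoters after values were seen. The promoters, gene families and motifs were chosen with earlier results of these data known. Alternatives were other joining rules, windows, transcript sets, hotspot width filters, island definitions and motif windows. Widths stand in for hotspot strength, which the lists do not give. Some named items are not reported here.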

Additional observations from a re-analysis of the deposited data

Results flagged for a closer look

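Chromosome X was left out of the comparisons above. On it, 141 of 585 promoter regions (24.1%, 95% Wilson interval 20.8 to 27.7) had Benzonase and Cyanase hotspots and no DNase I hotspot, against 13.0 to 15.9% on the autosomes. GC content, width and copy number on this chromosome were not compared, and their part was not tested.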

How the results depend on the processing

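The GC difference between promoters missed by DNase I and promoters with all 3 enzymes stayed positive, with an interval above 0, under the 7 alternatives run (3.66 to 6.75 points). The count stayed within 1.5 times of 2370 except where hotspots had to share at least 0.5 of both lengths, which split regions and gave 3926. Joining hotspots within 150 bp gave 62.6% mean GC, 75.2% with an island, 79.9% covering a TSS and 8.68% with DNase I elsewhere in the window. A window of 250 bp each side gave 63.1, 79.3, 91.3 and 0.609%. A window of 2 kb upstream gave 61.996% GC, 81.6% covering a TSS, 15.7% with DNase I in the window and 13.8% of promoter regions. TSSs of all annotated transcripts gave 61.3% GC, 63.2% with an island and 72.3% covering a TSS. Leaving out the narrowest hotspots of each list gave 61.9% GC, 77.8% with an island, 83.9% covering a TSS, 9.39% with DNase I in the window and 16.6% of promoter regions. Islands of at least 500 bp gave 52.7%, islands holding the region centre 66.9%, and the central 300 bp 66.7% GC. With regions within 1 kb of a DNase I hotspot left out, an alternative chosen after seeing the data, GC was 63.1%, 77.6% had an island and 80.4% covered a TSS. Motif windows around the TSS gave 12 instead of 11 motifs beyond their interval, the added one being CACGTG, the E-box letters, and no direction turned among those 11. The bins on the GC content of the motif window were also chosen after seeing the data.

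No paired analysis was possible because each enzyme has 1 pooled list. Without tag counts, a promoter with DNase I signal under the calling threshold cannot be told apart from one without signal, and differences in tag depth between enzymes could not be set equal.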
